A study of Macaca mulatta with 5 samples.

Results

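The activity-regulated genes described here are 10 genes whose transcription is known to follow neuronal activity: NPAS4, FOS, FOSB, JUNB, ARC, EGR1, NR4A1, HOMER1, BDNF and PCSK1. They were taken by gene symbol from the gene lists of all 5 count matrices, where all 10 were found among 21761 genes. The study profiled single nuclei from the claustrum, a thin gray matter sheet that lies deep to the insular cortex, in 2 healthy male rhesus macaques. One animal was 17 months old and gave 2 libraries, the other was 18 months old and gave 3 libraries. Both animals were untreated, and all nuclei came from frozen, surgically removed tissue, so there was no stimulated or silenced group. Values in each library are given in a fixed order: 17-month libraries 1 and 2, then 18-month libraries 1, 2 and 3.

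Calcium entry through synaptic receptors and voltage-gated channels drives kinases that act on CREB, SRF and MEF2, and these factors switch on rapid response genes without new protein synthesis. Most rapid products are transcription factors, which then act on delayed genes whose products work at synapses or are secreted. NPAS4, FOS, FOSB, JUNB, EGR1 and NR4A1 encode such factors. ARC and HOMER1 act at the postsynaptic side, BDNF is a secreted neurotrophin and PCSK1 is a protease that cuts prohormones. HOMER1 has a long form made at rest and a short form induced by activity, which these counts, summed per gene, cannot tell apart.

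Of 40005 nuclei in the files, 37053 were kept, with 47512670 to 70896967 unique molecular identifiers (UMIs, counts of single RNA molecules) per library. Levels below are given as CPM: UMIs of a gene, summed over the nuclei of a class within a library and scaled to the same total for every class and library. Classes were rebuilt by clustering without the 10 genes, since no cell annotation was used here. They held 8717 excitatory, 2740 inhibitory and 2182 striatal projection nuclei, 14499 oligodendrocytes, 2065 oligodendrocyte precursors, 2828 microglia, 1194 astrocytes and 578 endothelial nuclei, and 1988 nuclei stayed unnamed. Claustrum-like markers summed to 1828 to 2589 CPM per library in the 5033 claustrum-like excitatory nuclei and to 117 to 208 CPM in the 1061 other excitatory nuclei with a name, which were layer 6 corticothalamic-like, layer 4/5 and layer 6 intratelencephalic-like. These markers were not exclusive, with 822 to 983.5 CPM in inhibitory neurons. Direct pathway markers summed to 412 to 698 CPM in direct and 11.9 to 27.4 CPM in indirect pathway-like nuclei. Excitatory markers were also counted in other classes, where SLC17A7 reached 60.3% of its excitatory level in microglia and 55.4% in oligodendrocytes. Each pair of libraries shared 11 to 39 cell barcodes. The labels do not say that the libraries of an animal came from separate tissue pieces, so all p-values below measure the spread between 5 libraries from 2 animals, which may be technical.

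NPAS4 was highest in direct pathway-like striatal neurons, at 45.2 ± 23.1 CPM (SD, n = 5 libraries), followed by claustrum-like neurons at 19.8 ± 7.72 CPM and indirect pathway-like neurons at 10.4 ± 6.41 CPM. NR4A1 had the same leading pair, with 76.2 ± 38.4 CPM in direct pathway-like and 44.2 ± 9.20 CPM in claustrum-like neurons. FOSB, at 9.22 ± 4.44 and 4.71 ± 2.43 CPM, had it too. The direct and claustrum-like ranges overlapped for all 3 of these genes. Within libraries, the direct level was the higher one in 5 of 5 for NPAS4, in 4 of 5 for FOSB (not in 18-month library 2) and in 3 of 5 for NR4A1 (in neither 17-month library). The difference between these classes was not tested. FOS followed another order: endothelial nuclei had 24.7 ± 13.3 CPM, direct pathway-like neurons 20.9 ± 8.27 CPM and claustrum-like neurons 17.4 ± 6.21 CPM, again with overlapping ranges.

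HOMER1, the synaptic scaffold, was highest in 3 classes of projection neurons with overlapping ranges: 1574 ± 646 CPM in direct, 1283 ± 465 CPM in indirect pathway-like and 1255 ± 347 CPM in claustrum-like neurons. BDNF stood at 222 ± 33.1 CPM in claustrum-like neurons. The next named class, layer 4/5 intratelencephalic-like neurons, had 57.8 ± 35.7 CPM in 2 libraries. The lowest claustrum-like library, at 189 CPM, lay above every library of every other named class in this ordering. Excitatory clusters without a name were not ranked. With those clusters included, all excitatory nuclei outside the claustrum-like class had 117, 101, 134, 123 and 169 CPM of BDNF. PCSK1 was highest in those layer 4/5 neurons, at 143.6 ± 42.0 CPM in 2 libraries, ahead of claustrum-like neurons at 47.1 ± 18.2 CPM. EGR1 stayed between 1.46 and 12.8 CPM on average in every class, with overlapping ranges among its leading classes. JUNB and ARC were barely counted: their highest class means were 1.71 and 0.815 CPM, and all 8717 excitatory nuclei together held 60 JUNB and 37 ARC UMIs. No ARC UMI was found in 2740 inhibitory nuclei, which allows a share of nuclei with a UMI of up to 0.1095% at this depth, by counting error alone.

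**Figure D1:**
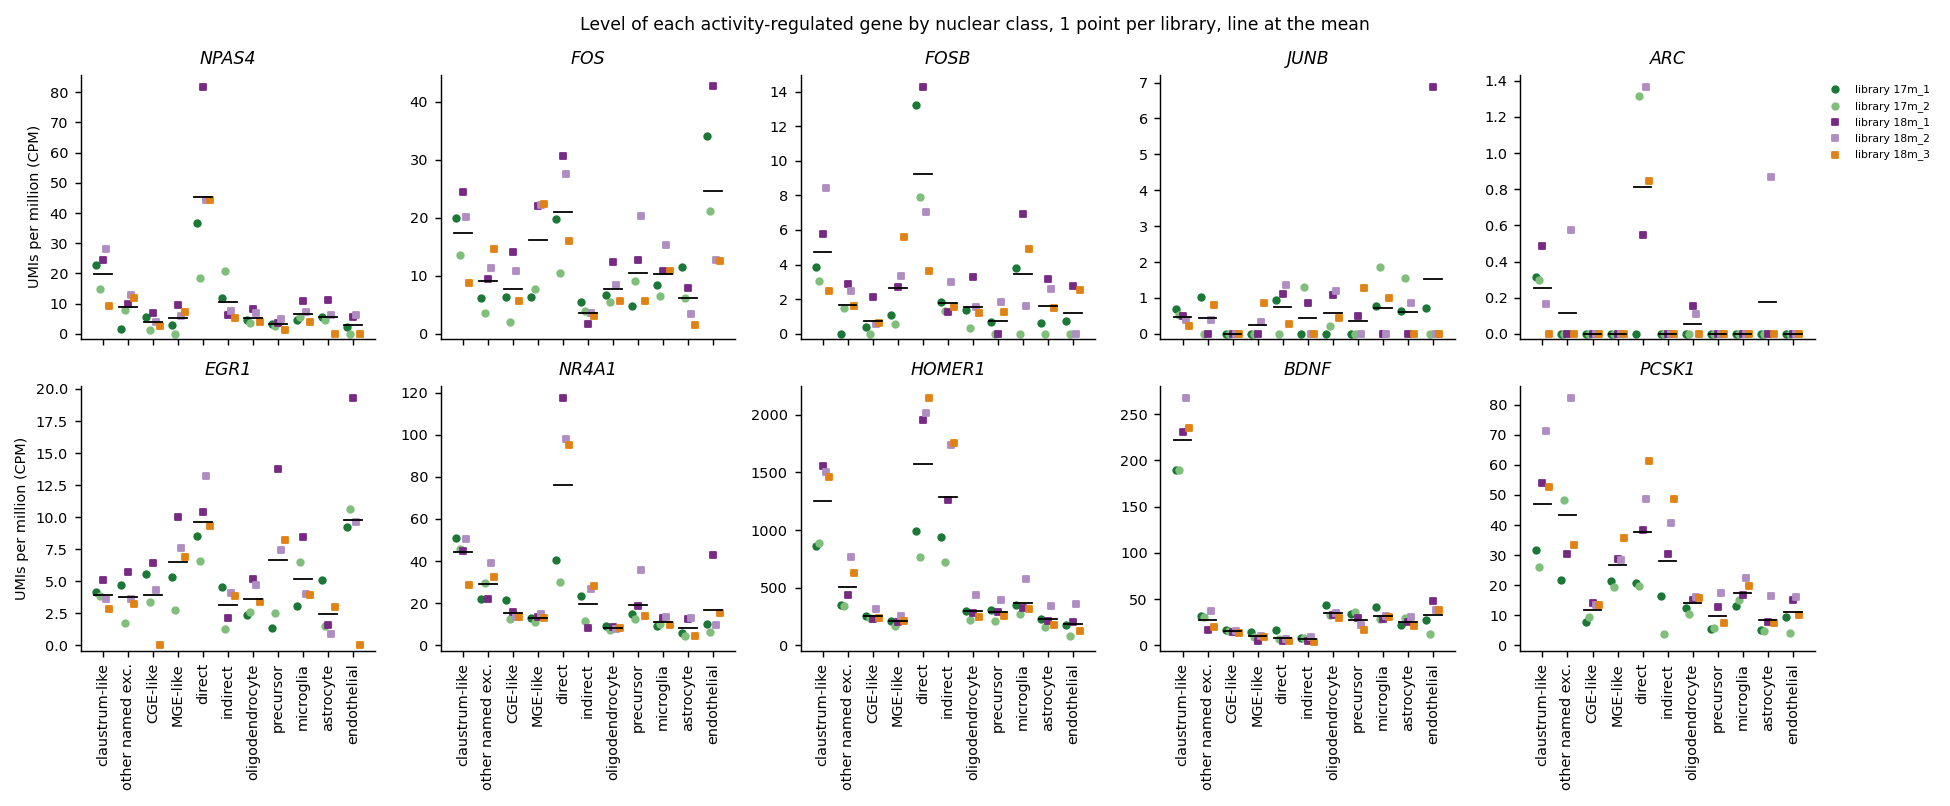
Level of each of the 10 genes (vertical axis, CPM, a scale of its own for each gene) in 11 nuclear classes (horizontal axis). Each point is 1 library, circles for the 17-month and squares for the 18-month animal, and the line is the mean. Among the classes shown, BDNF is highest in claustrum-like neurons, while NPAS4, NR4A1 and FOSB have their highest means in direct pathway-like neurons. Excitatory clusters without a name are not shown.

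Excitatory neurons, which release glutamate, had more of 6 members than inhibitory neurons, which release GABA. Called genes here needed an adjusted p under 0.05 in edgeR's quasi-likelihood test (Benjamini-Hochberg over all genes tested) and a log2 fold change of at least 1 in size. By this rule 14.1% of 10790 genes were called, 7.34% as higher in excitatory neurons, against 6 of the 8 members that had enough counts to be tested. JUNB and ARC had too few counts for the test.

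BDNF had 159.7, 149.7, 195, 202 and 210.2 CPM in excitatory and 15.3, 11.7, 8.84, 11.5 and 10.3 CPM in inhibitory neurons. All 5 libraries showed the difference, the groups did not overlap, and the log2 fold change was 4.05 ± 0.16 (SE; edgeR adjusted p = 3.9e-06). HOMER1 had 675, 666, 1304, 1215 and 1227 CPM in excitatory against 232, 205, 215, 277 and 219 CPM in inhibitory neurons, without overlap, at a log2 fold change of 2.15 ± 0.22 (edgeR adjusted p = 0.0011). The excitatory level was lower in both 17-month libraries than in any 18-month library, while the inhibitory levels of the animals overlapped. PCSK1 was also called, at a log2 fold change of 1.25 ± 0.14.

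Among the factors, NPAS4 had 17.6, 12.7, 21.5, 21.4 and 8.76 CPM in excitatory and 4.28, 1.07, 8.33, 4.68 and 6.52 CPM in inhibitory neurons. It was higher in all 5 libraries (log2 fold change 1.76 ± 0.30, edgeR adjusted p = 0.0033). NR4A1, at 1.496 ± 0.09, and FOSB, at 1.19 ± 0.31, were also called. FOS was not: it had 14.8, 10.1, 19.7, 15.6 and 10.1 CPM in excitatory against 6.96, 5.07, 19.9, 18.0 and 14.7 CPM in inhibitory neurons. The excitatory level was above the inhibitory in both 17-month libraries and below it in all 18-month libraries, and the log2 fold change was 0.20 ± 0.24 (edgeR adjusted p = 0.51). EGR1 leaned the other way, with a log2 fold change of -0.48 ± 0.17 (edgeR adjusted p = 0.023) that was under the fold threshold.

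Other rapid response genes (median log2 fold change 0.83 over those tested, against -0.01 over all genes) leaned the same way. Of 16 tested, 7 were higher in excitatory neurons and none lower, led by the zinc finger gene KLF10 (log2 fold change 1.89), the EGR family gene EGR4 (1.76), NR4A3, a relative of NR4A1 (1.46), and the kinase gene SIK1 (1.36). Of 19 other delayed genes (median 0.90), 9 were higher and 2 lower. The highest were RASGRP1 (3.06), NRN1 (2.50), the synaptic pentraxin NPTX1 (2.42) and PTGS2 (2.39), and the 2 lower genes were the neuropeptide precursors VGF (-1.74) and SCG2 (-1.05). Of 18 upstream factors and kinases, CAMK2A (1.48) and CAMK4 (1.38) were called. Partners of the members split, with 4 higher and 3 lower of 20, including RXRA (-3.31), which pairs with NR4A1, and HOMER3 (-1.44). Of 7 genes that respond to heat or tissue handling, only HSPB1 was called, and it was lower (-1.22).

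Within excitatory neurons, claustrum-like nuclei had more BDNF, HOMER1 and FOSB than the other named nuclei. These were 3 of 8 tested members, where 9.17% of 10001 genes were called, 4.11% as higher and 5.06% as lower. BDNF had 189.9, 189, 231, 267 and 235 CPM against 31.7, 30.6, 16.2, 37.3 and 19.9 CPM (log2 fold change 2.99 ± 0.21, edgeR adjusted p = 0.0002). HOMER1 had 866, 889.7, 1557, 1505 and 1459 CPM against 352, 338, 433, 764 and 631 CPM (1.31 ± 0.11, edgeR adjusted p = 2.7e-05). Neither gene overlapped between the groups. FOSB had 3.87, 3.03, 5.75, 8.44 and 2.48 CPM against 0, 1.47, 2.85, 2.50 and 1.62 CPM, higher in all 5 libraries but with overlapping ranges between groups (1.44 ± 0.32, edgeR adjusted p = 0.0030), and its call was lost without the library as a block (adjusted p = 0.066).

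For the rapid factors NPAS4 and FOS, 1 library decided the call. NPAS4 had 22.7, 14.8, 24.3, 28.1 and 9.05 CPM in claustrum-like against 1.56, 7.94, 9.98, 12.7 and 11.8 CPM in the other named nuclei, higher in 4 of 5 libraries (log2 fold change 1.05 ± 0.40, edgeR adjusted p = 0.11). FOS had 19.9, 13.6, 24.5, 20.2 and 8.72 CPM against 6.24, 3.53, 9.50, 11.3 and 14.6 CPM, again reversed in the last library alone (0.87 ± 0.38, edgeR adjusted p = 0.14). Without 18-month library 3, both were called, NPAS4 at 1.34 and FOS at 1.27, and 5 members passed. NR4A1 reached 0.53 ± 0.18 (edgeR adjusted p = 0.057). PCSK1 and EGR1 had log2 fold changes of 0.06 ± 0.30 and 0.05 ± 0.24.

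The calls of BDNF, HOMER1 and FOSB depended on the comparison group. Against all other excitatory nuclei, including clusters that kept no name, no member of 8 passed both thresholds in edgeR, where 6.07% of genes did. In the same comparison 5 members had an unadjusted p under 0.05, and the share of all genes at that threshold is not given here. The group held unnamed cluster 8 (156 nuclei), whose leading genes include the claustrum-like markers SMYD1, NTNG2 and NR4A2. It also held clusters 9 (142 nuclei) and 14 (29), led by the oligodendrocyte marker MBP and the microglial marker APBB1IP. The largest unnamed clusters in the group were 3 (1057 nuclei), led by TOX, and 4 (1037 nuclei), led by CDH13. The part of these clusters in the lost calls was not tested. HOMER1 still differed by a log2 fold change of 0.93 (edgeR adjusted p = 8.6e-07) and BDNF by 0.79, both under the fold threshold. FOSB differed by 0.36 (edgeR adjusted p = 0.23) and was higher in 3 of 5 libraries. From the wider lists, the FOS relative FOSL2 (2.20) and EGR2 (1.03) were higher in claustrum-like than in the other named nuclei among 16 rapid genes. GADD45B (1.40), the sortilin relative SORCS3 (1.24) and RGS2 (1.12) were higher among 18 delayed genes, and SORCS2 (-4.66) and RXRA (-2.10) were the 2 partners that were lower. None of the 18 upstream genes was called.

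Levels also varied among the 4 clusters that made up the claustrum-like class. Clusters were drawn from the same nuclei, so these values are a description with no test. Mean BDNF was 53.5, 383, 197 and 249 CPM in clusters 0, 1, 2 and 5. NPAS4 had 13.97, 46.0, 7.46 and 2.70 CPM in the same order. Cluster 1 thus had the highest mean of both genes, while cluster 5 combined high BDNF with the lowest NPAS4. Cluster 1 also had 43.0 CPM of FOS and 102 CPM of PCSK1, and cluster 5 had 1.99 CPM of FOS.

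Between inhibitory neurons of caudal (CGE-like) and medial ganglionic eminence type (MGE-like), 1 of 7 tested members was called, where 5.02% of 8432 genes were called, 2.59% as higher and 2.43% as lower. PCSK1 had 7.90, 9.38, 14.2, 13.5 and 13.3 CPM in CGE-like and 21.3, 19.5, 28.8, 28.5 and 35.8 CPM in MGE-like neurons. The groups did not overlap, and the log2 fold change was -1.18 ± 0.15 (edgeR adjusted p = 6.0e-08). FOS, at -0.94 ± 0.21 (edgeR adjusted p = 0.00055), was just under the fold threshold and passed it without 17-month library 1 (-1.09) or without 18-month library 1 (-1.11). BDNF (0.68) and HOMER1 (0.29) differed in the other direction with adjusted p of 0.0049 and 3.9e-05 in edgeR, under the fold threshold. SORCS3 (3.25), PLK2 (1.10) and NR4A3 (1.41) were higher and DUSP1 (-1.15) lower in CGE-like neurons.

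Striatal projection neurons were present in all libraries although the tissue is labelled claustrum. Compared with excitatory neurons, 1 of 8 members was called, where 18.7% of 10907 genes were called, 8.03% as higher and 10.6% as lower. BDNF had 15.6, 6.76, 6.53, 8.53 and 5.75 CPM in striatal neurons, far under all excitatory libraries (log2 fold change -4.46 ± 0.23, edgeR adjusted p = 1.8e-05). EGR1 (0.92), NPAS4 (0.74) and HOMER1 (0.47) were higher in striatal neurons with adjusted p of 0.00037, 0.015 and 6.7e-05 in edgeR, all under the fold threshold. EGR1 crossed it without 18-month library 1 (1.01). The EGR relative EGR4 (2.90) was the 1 other rapid gene called, while CDKN1A (-3.30), NRN1 (-2.96) and NPTX1 (-2.69) were lower and INHBA (3.51) higher among delayed genes.

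Inside the striatal class the rapid factors separated the 2 output types. Direct pathway-like neurons carry dopamine D1-type and indirect pathway-like neurons D2-type receptors. Of 7 tested members, 4 were higher in direct pathway-like neurons, where 0.817% of 7832 genes were called, 0.536% as higher and 0.281% as lower. FOS had 19.8, 10.5, 30.7, 27.6 and 16.0 CPM in direct and 5.44, 3.92, 1.69, 3.53 and 3.11 CPM in indirect pathway-like neurons. Every direct value lay above every indirect value (log2 fold change 2.77 ± 0.22, edgeR adjusted p = 3.7e-13). EGR1 had 8.50, 6.58, 10.4, 13.2 and 9.27 CPM against 4.54, 1.31, 2.12, 4.08 and 3.88 CPM, also without overlap (1.56 ± 0.24, edgeR adjusted p = 5.4e-06).

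NPAS4 had 36.8, 18.4, 81.8, 44.4 and 44.4 CPM in direct against 11.8, 20.9, 6.35, 7.61 and 5.18 CPM in indirect pathway-like neurons. It was higher in 4 of 5 libraries, with 17-month library 2 as the exception (2.58 ± 0.43, edgeR adjusted p = 0.037). NR4A1 had 40.6, 30.3, 117, 97.9 and 94.99 CPM against 23.6, 11.8, 8.47, 26.7 and 28.2 CPM, without overlap, and the 18-month libraries showed the wider gap (1.98 ± 0.35, edgeR adjusted p = 0.048). The calls of NPAS4 and NR4A1 were near the threshold, while FOS was called under every alternative run. EGR1 had too few counts for the test without 18-month library 2 and got no adjusted p from DESeq2. NPAS4 lost its call without 17-month library 1 or any one of the 18-month libraries, with adjusted p of 0.051 to 0.18. NR4A1 lost it without 17-month library 1 or 2, or 18-month library 2 or 3 (0.080 to 0.20), without the filter on low counts (0.084) and without the library as a block (0.077). Their log2 fold changes under these settings stayed between 1.91 and 2.69.

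FOSB had too few counts for the test, with 13.2, 7.89, 14.3, 7.06 and 3.65 CPM in direct and 1.81, 1.31, 1.27, 2.97 and 1.55 CPM in indirect pathway-like neurons; every direct value was above every indirect value. HOMER1 (0.26), PCSK1 (0.32) and BDNF (0.05 ± 0.24) were not called, with adjusted p of 0.10, 0.071 and 0.96 in edgeR. HOMER1 and PCSK1 were still higher in direct pathway-like neurons in 5 of 5 libraries, and BDNF in 2 of 5. Of 9 other rapid genes tested (median log2 fold change 0.64, against 0.0017 over all genes), 4 were higher in direct pathway-like neurons: EGR4 (2.60), the phosphatase genes DUSP1 (2.53) and DUSP6 (1.45), and EGR2 (1.22). Of 13 delayed genes, NPTX2 (2.26), RGS2 (1.47) and GADD45B (1.14) were higher and SORCS3 (-1.45) lower. None of the 16 upstream genes, 18 partners or 5 handling genes was called. Median depth per nucleus was 14360 UMIs in direct and 13999 UMIs in indirect pathway-like neurons.

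**Figure D2:**
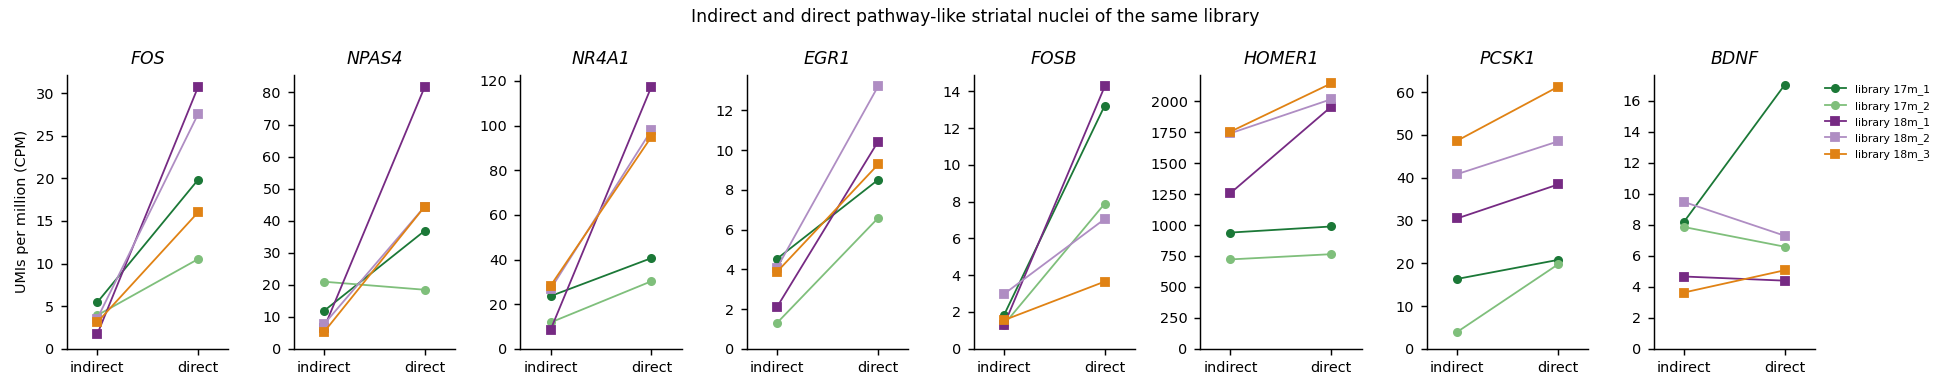
Levels of 8 members (vertical axes, CPM) in indirect and direct pathway-like striatal neurons (horizontal axes), with a line joining the values of each of the 5 libraries. All 5 lines rise from indirect to direct for FOS, EGR1, NR4A1, FOSB, HOMER1 and PCSK1, with smaller differences for the last pair that were not called. Of the 5 lines, 4 rise for NPAS4 and 2 for BDNF.

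Neurons as a whole (the mean of excitatory, inhibitory and striatal classes) had more of 5 of the 8 tested members than the mean of 4 glial classes, where 24.8% of 10213 genes were called and 14.7% were higher. The log2 fold changes were 1.57 ± 0.14 for NR4A1, 1.51 ± 0.16 for NPAS4, 1.496 ± 0.11 for PCSK1, 1.37 ± 0.09 for HOMER1 and 1.23 ± 0.29 for FOSB. FOS (0.68) was under the fold threshold, and EGR1 (0.33) had an adjusted p of 0.078 in edgeR. BDNF differed by -0.04 ± 0.11 (edgeR adjusted p = 0.74), and was high in 1 of the 3 neuron classes. Other rapid response genes were split: 4 were higher and 4 lower in neurons among 17 tested (median log2 fold change 0.16). Other delayed genes had 5 higher and 1 lower of 19, and upstream factors and kinases had 4 higher of 18. Partners of the members had 12 higher and 3 lower of 20. Among 8 handling genes, 2 were lower in neurons and none higher.

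Oligodendrocytes held 29.3% of the excitatory HOMER1 level, 18.9% of BDNF, 33.0% of NPAS4 and 21.7% of NR4A1. The 6 excitatory marker genes in the same oligodendrocytes stood at 16.7% (SV2B) to 86.8% (NEUROD6) of their excitatory level, and the part of neuronal RNA in these glial values was not tested. EGR1 was at 99.8% and FOS at 55.2% of the excitatory level. In endothelial nuclei, FOS and EGR1 were at 176% and 267% of it, while the excitatory markers there were at 10.2% (SV2B) to 45.5% (NEUROD6).

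Among 5 non-neuronal classes, each set against the mean of the others, endothelial nuclei had 2 of 6 tested members called, both higher, where 26.0% of 8816 genes were called and 14.7% were higher. FOS had 34.2, 21.3, 42.7, 12.8 and 12.6 CPM in endothelial nuclei, all above the oligodendrocyte libraries, whose highest value was 12.4 CPM. The range overlapped with microglia, which reached 15.3 CPM, and oligodendrocyte precursors, which reached 20.4 CPM, both in 18-month library 2 (log2 fold change 1.60 ± 0.27, edgeR adjusted p = 9.9e-06). EGR1 had 9.26, 10.6, 19.3, 9.59 and 0 CPM, with 1 library at 0 (1.20 ± 0.39, edgeR adjusted p = 0.0091), and lost its call without 18-month library 1 (adjusted p = 0.080). Of 15 other rapid genes, 12 were higher there, with a median of 1.76 over the list against -0.04 over all genes, led by KLF4 (6.09), CCN1 (4.76), DUSP1 (4.52) and SIK1 (3.87). Of 8 handling genes, 4 were higher in the same nuclei, led by HSPB1 (3.47), BAG3 (2.42) and DNAJB1 (2.14), and their part in the FOS value was not tested.

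No member was called in edgeR in oligodendrocytes, oligodendrocyte precursors, microglia or astrocytes, where 20.7%, 17.8%, 22.9% and 19.0% of genes were called. The shares called as higher were 7.87% in oligodendrocytes and 9.58% in precursors, and those called as lower were 8.26% in precursors and 7.70% in astrocytes. At an unadjusted p under 0.05, 6, 2, 2 and 5 of 6 members differed in these classes, all but 1 with changes under the fold threshold. That exception was EGR1 in astrocytes (-1.01, edgeR adjusted p = 0.075). How many of all genes had an unadjusted p under 0.05 is not given here, so these counts have no background. Astrocyte EGR1 (-1.96) and FOS (-1.45) were called as lower without 17-month library 1, and NR4A1 was called in oligodendrocyte precursors without 18-month library 1 (1.22). DESeq2 also called no member in these 4 classes.

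The share of nuclei with at least 1 UMI of a gene grows with depth, and median depth ranged from 2036 UMIs in microglia and 2416 in oligodendrocytes to 16292 in claustrum-like nuclei. Each nucleus was therefore also thinned to 1000 UMIs, which left shallower nuclei out. As counted, 12.2% ± 3.39 of claustrum-like nuclei had a NPAS4 UMI (SD, n = 5 libraries) against 28.8% ± 13.9 of direct, 9.57% ± 2.19 of indirect pathway-like nuclei and 1.34% ± 0.493 of oligodendrocytes. At 1000 UMIs, the NPAS4 shares were 1.94% ± 1.05 in claustrum-like, 4.61% ± 3.91 in direct, 1.02% ± 0.689 in indirect pathway-like nuclei and 0.599% ± 0.318 in oligodendrocytes. The ranges of all 3 neuron classes at this depth overlapped with the oligodendrocyte range.

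For FOS the thinned shares were 1.62% ± 0.566 in claustrum-like and 2.21% ± 1.84 in direct pathway-like nuclei, against 0.691% ± 0.293 in oligodendrocytes and 0.228% ± 0.382 in indirect pathway-like nuclei. The mean indirect share was below that of oligodendrocytes, and free RNA was not measured here. NR4A1 stood further apart, at 4.55% ± 0.893 in claustrum-like, 6.03% ± 1.67 in direct pathway-like nuclei and 0.806% ± 0.179 in oligodendrocytes, with no overlap between either neuron class and oligodendrocytes. BDNF reached 17.2% ± 2.81 in claustrum-like nuclei against 3.10% ± 0.757 in the other named excitatory nuclei and 3.43% ± 0.607 in oligodendrocytes. The last 2 values overlapped. HOMER1 was found in 99.5% ± 0.404 of claustrum-like nuclei as counted and 59.9% ± 8.17 at 1000 UMIs, against 26.3% ± 6.72 of oligodendrocytes.

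The rapid factors were counted in the same nuclei more often than their separate shares would give. Expected numbers were the product of the shares of both genes within each library and cluster, summed over clusters and libraries. In claustrum-like nuclei, NPAS4 and FOS were found together in 381 nuclei where 148 were expected, a ratio of 2.58. The ratio was 2.26, 2.72, 2.10, 3.22 and 4.71 in the 5 libraries, above 2 in each. NPAS4 with FOSB gave 180 nuclei against 62.0 (2.90), FOS with FOSB gave 168 against 66.3 (2.53), and NPAS4 with EGR1 had a ratio of 2.28. Within 5 strata of UMI depth the NPAS4 and FOS ratio was 2.50, and the NPAS4 and FOSB ratio was 2.83.

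Pairs with NR4A1 had lower ratios, 1.60 with NPAS4 and 1.31 with PCSK1. Ratios with PCSK1 ran from 1.26 with FOS to 1.36 with FOSB, leaving out HOMER1 and BDNF. BDNF, which was counted in 68.0% of these nuclei, had ratios of 1.06 to 1.12 with the rapid genes. HOMER1 stayed at 1.00, and could hardly do otherwise since nearly every nucleus had it. In striatal neurons NPAS4 and FOS were together in 109 nuclei against 54.2 expected (2.01), in inhibitory neurons in 29 against 11.1 (2.62), and in other named excitatory nuclei in 32 against 7.50 (4.26). These are descriptions over nuclei that share libraries, with no test.

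**Figure D3:**
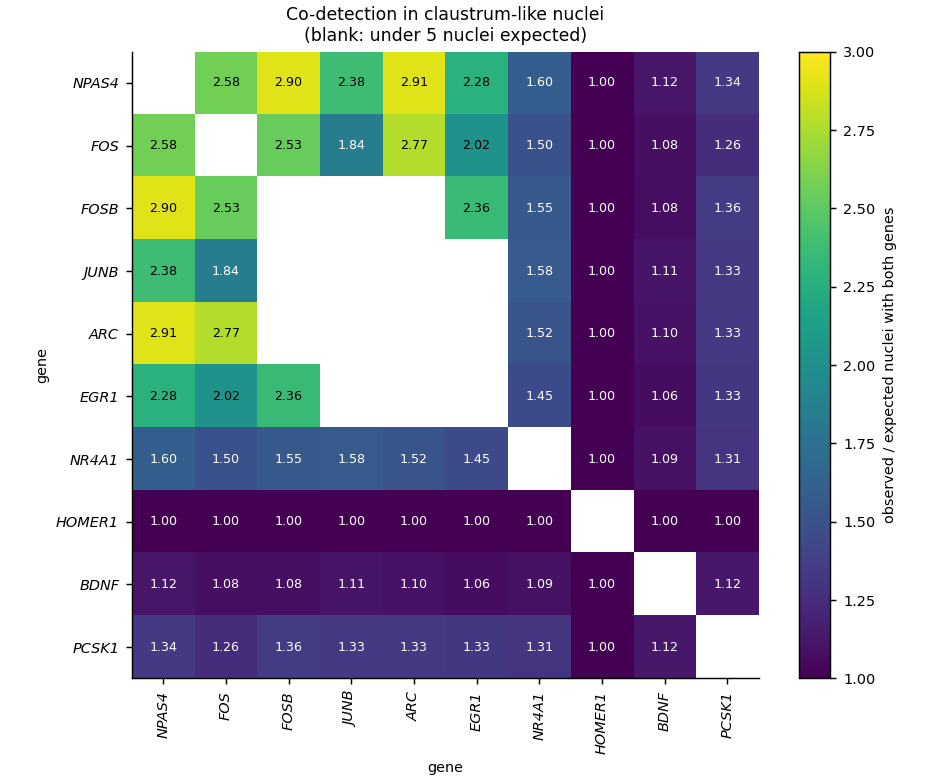
Observed over expected number of claustrum-like nuclei with a UMI of both genes, for each pair of the 10 genes (both axes list genes, color and number give the ratio), blank where fewer than 5 nuclei were expected. Pairs among NPAS4, FOS, FOSB and EGR1 lie between 2.02 and 2.90, pairs with NR4A1 other than HOMER1 and BDNF between 1.31 and 1.60, and pairs with HOMER1 at 1.00.

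Nuclei with UMIs of at least 3 of the 7 rapid members (NPAS4, FOS, FOSB, JUNB, ARC, EGR1 and NR4A1) made up 448 of 5033 claustrum-like nuclei, or 8.90% (95% exact binomial interval 8.13 to 9.72%, counting error only). The cut is a range on a count, not a cell type: 845 nuclei had at least 2 and 203 at least 4 of the genes. The share was 16.2% of 771 direct and 1.53% of 917 indirect pathway-like nuclei, and 0.556% of 1258 CGE-like and 2.16% of 1294 MGE-like nuclei. None of 14499 oligodendrocytes reached 3, which allows up to 0.0207% at their lower depth. Median depth was 7127.5 UMIs in CGE-like and 9392 in MGE-like nuclei, against 16292 in claustrum-like nuclei. As counted, all striatal projection nuclei had a share of 6.97% and all inhibitory nuclei 1.42%. Thinned to 2000 UMIs, the share was 0.438% in claustrum-like, 0.231% in striatal projection and 0.183% in inhibitory nuclei.

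Such nuclei were uneven across excitatory clusters. Claustrum-like cluster 1 held 318 of the 448, which was 22.3% of its 1426 nuclei and 19.1, 24.7, 33.3, 24.1 and 9.69% in the 5 libraries. Clusters 0, 2 and 5 had 5.21%, 3.36% and 0.555%. The highest share, 41.7% of 156 nuclei, was in cluster 8, which was left unnamed. Its layer 6 intratelencephalic-like and claustrum-like marker scores tied, and it failed other naming rules too. Its 10 leading genes held the claustrum-like markers SMYD1, NTNG2 and NR4A2 and no layer 6 intratelencephalic-like marker. Of these markers, NR4A2 is a relative of the rapid member NR4A1, and whether it follows activity was not tested here. Direct pathway-like nuclei had 8.43, 7.14, 20.8, 18.2 and 16.0% in the 5 libraries, without overlap between the animals. Nuclei with 3 or more rapid genes were deeper, with a median of 18255.5 UMIs against 16292 over all claustrum-like nuclei.

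**Figure D4:**
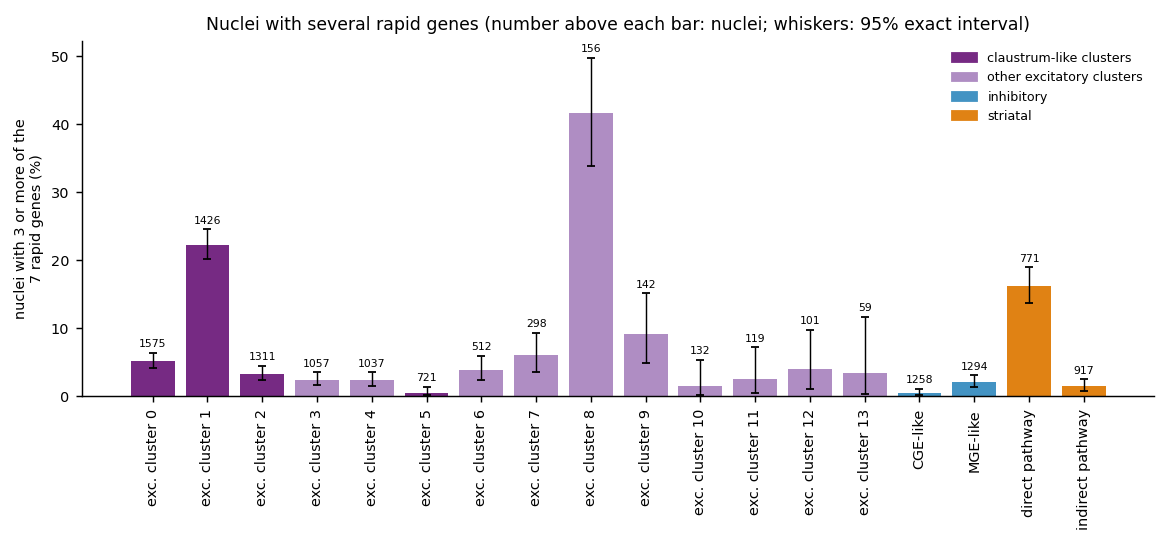
Percent of nuclei with UMIs of at least 3 of the 7 rapid genes (vertical axis) in excitatory clusters 0 to 13 and in CGE-like, MGE-like, direct and indirect pathway-like neurons (horizontal axis), with 95% exact binomial intervals and the number of nuclei above each bar. Excitatory clusters 8 and 1 and direct pathway-like neurons are the highest, at 41.7, 22.3 and 16.2%. Shares are as counted, without thinning to equal depth.

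In claustrum-like nuclei, those with 3 or more rapid genes were compared with those with none inside the same cluster and library, over 6 such strata from 5 libraries (349 against 612 nuclei; 5 strata were in cluster 1 and 1 in cluster 0). The 7 rapid members set the groups and were not tested. Of 9499 other genes, 88 (0.926%) were called, 73 (0.769%) of them higher. Of the remaining 3 members, 2 passed. PCSK1 had 149 ± 48.7 CPM against 45.9 ± 10.6 CPM (log2 fold change 1.67 ± 0.10, edgeR adjusted p = 2.3e-16), and BDNF had 448.7 ± 54.0 CPM against 219 ± 50.1 CPM (1.07 ± 0.19, edgeR adjusted p = 0.028). Both were higher in all 5 libraries. HOMER1 was higher by 0.64 ± 0.08, under the fold threshold.

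Many genes of the other lists were called too. Of 11 other rapid genes (median log2 fold change 1.92, against -0.014 over all genes), 8 were higher, led by BTG2 (log2 fold change 5.09), DUSP1 (3.76), NR4A3 (2.51) and SIK1 (2.39). Of 15 other delayed genes (median 1.09), 9 were higher, led by RGS2 (3.85), PTGS2 (3.54), GADD45B (2.54) and NPTX2 (2.52). None of the 16 upstream genes was called. The chaperone gene HSPA5 (1.29) was the 1 of 5 handling genes that was called, and its part in the result was not tested. Outside these lists, the genes that fell most, chosen after their values were seen, were the dopamine receptor gene DRD2 (-2.26, from 49.6 to 9.05 CPM), ATP10A (-2.08) and ADAMTS2 (-1.84). DRD2 was also a marker used to name striatal classes. With nuclei matched for depth, 77 genes were called and 66 of them were among the 88.

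In direct pathway-like nuclei the same comparison could use 3 libraries, all of the 18-month animal (114 against 209 nuclei), and called 63 of 7764 genes (0.811%), 50 of them higher (0.644%). PCSK1 reached 0.50 ± 0.22 (edgeR adjusted p = 0.41), HOMER1 reached 0.38 ± 0.10 (edgeR adjusted p = 0.037), under the fold threshold, and BDNF had too few counts. DUSP1 (3.28), EGR4 (3.23), FOSL2 (2.08) and NR4A3 (2.05) led 6 of 8 rapid genes that were higher, and RGS2 (1.75), SYT4 (1.62), NPTX2 (1.52) and SCG2 (1.11) were the 4 higher of 12 delayed genes. The 2 genes that fell most, ST6GALNAC3 (-2.19) and C6 (-2.18), were named after their values were seen, and ST6GALNAC3 is among the leading genes of 1 direct pathway-like cluster; the cluster was not held fixed here. Both classes shared 20 higher genes, 27.4% of the claustrum-like and 40% of the direct pathway-like list. Of the 73 claustrum-like genes 39 were tested in direct pathway-like nuclei, and of the 50 direct pathway-like genes 40 were tested in claustrum-like nuclei. Calls in direct pathway-like nuclei fell to 15 with DESeq2 and to 25 without 18-month library 2.

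Across 16 classes, the genes most like a member, by Pearson's r of log2(mean CPM + 1), differed with the handling of small classes. With sums of any size, NPAS4 was most like NR4A3 (0.87), EGR4 (0.87) and RGS2 (0.83). With at least 20 nuclei per sum, a setting chosen after seeing the data, it was most like HOMER1 (0.86), KCTD17 and ILDR1 (both 0.82). BDNF had TLL1 (0.90 and 0.93) and CADPS2 (0.89 and 0.92) under both settings. HOMER1 had SNTG2 (0.94 and 0.93), and NR4A1 had GUCY1A2 (0.85 and 0.88). FOS and PCSK1 shared none of their 3 genes between the settings, and FOSB, JUNB, ARC and EGR1 were too low in every class to be matched. The 16 classes share libraries, so these are descriptions.

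Among the members, PCSK1 separated the 2 animals in the most classes. In 8 of 9 classes every 18-month library lay above both 17-month libraries, all but the other named excitatory nuclei. Each other member separated the animals in this direction in 3 classes or fewer. The classes share libraries, and the share of all genes that separated the animals in this way was not counted. With 1 animal of each age, the animal, its age and its sampling cannot be told apart, and the test compares 3 libraries with 2 by edgeR's adjusted p alone, with no fold threshold. In claustrum-like neurons 3 of 8 members were called as higher in the 18-month animal, where 14.0% of 11024 genes were called and 6.95% were higher. HOMER1 had 866 and 889.7 CPM in the 17-month and 1557, 1505 and 1459 CPM in the 18-month libraries (log2 fold change 0.84 ± 0.07, edgeR adjusted p = 0.00019). PCSK1 had 31.8 and 26.2 against 54.1, 71.1 and 52.6 CPM (1.09 ± 0.17, edgeR adjusted p = 0.012), and BDNF 189.9 and 189 against 231, 267 and 235 CPM (0.43 ± 0.08, edgeR adjusted p = 0.0089). None of the 3 genes overlapped between animals, but PCSK1 and BDNF lost their calls without either 17-month library (edgeR adjusted p 0.079 to 0.12). Median depth per claustrum-like nucleus was 12291 and 14724 UMIs in the 17-month and 18236.5, 16334.5 and 23573.5 UMIs in the 18-month libraries, and its part in these values was not tested. FOS and NPAS4 were lowest in 18-month library 3, at 8.72 and 9.05 CPM, and highest in the other 18-month libraries, and their log2 fold changes of 0.15 ± 0.53 and 0.18 ± 0.61 were not called. FOSB was called in claustrum-like neurons without 18-month library 3 (1.08) and with the replicate number as a block (1.06).

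In striatal neurons HOMER1 (1.07 ± 0.14), PCSK1 (1.52 ± 0.26) and NR4A1 (1.05 ± 0.12) were higher in the 18-month animal, 3 of 8 members where 11.7% of genes were called and 6.11% were higher. NR4A1 had 30.9 and 24.2 against 54.3, 56.1 and 56.6 CPM, without overlap (edgeR adjusted p = 6.0e-05). PCSK1 lost its call there without 17-month library 2 (adjusted p = 0.066). The make-up of the striatal class differed too. Clusters 0 and 1 held 23.2 and 30.9% of its nuclei in the 17-month and 53.5, 48.7 and 45.3% in the 18-month libraries, while clusters 2 and 3 held 47.6 and 47.5% against 27.6, 18.5 and 26.1%. Clusters 7 and 8 held 12.96% in 18-month library 2 and at most 2.15% in the others. Clusters 0, 2 and 8 were indirect and 1, 3 and 7 direct pathway-like, and the part of this make-up in the striatal values was not tested.

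In inhibitory neurons FOS (1.53 ± 0.21), FOSB (2.10 ± 0.56) and PCSK1 (0.70 ± 0.16) were called, 3 of 8 where 7.80% of genes were called and 4.05% were higher. FOS rose from 6.96 and 5.07 to 19.9, 18.0 and 14.7 CPM, without overlap (edgeR adjusted p = 1.1e-05). FOSB and PCSK1 lost their calls in inhibitory neurons without 17-month library 1 (adjusted p = 0.070 and 0.084), and FOSB also without 17-month library 2 (0.19). DESeq2 called neither in inhibitory neurons (adjusted p = 0.18 and 0.072). NPAS4 was not called there in the comparison as reported, but edgeR called it without the filter on low counts (1.15), without 17-month library 1 (2.59), without 18-month library 2 (1.35) and with the replicate number as a block (1.25).

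In oligodendrocytes 1 of 8 members was called where 14.1% of genes were and 7.70% were higher: PCSK1, at 0.50 ± 0.15, with an adjusted p of 0.048 in edgeR that was lost without any single library. In oligodendrocyte precursors 1 of 6 was called where 4.27% of genes were and 2.05% were higher: EGR1 had 1.36 and 2.50 against 13.7, 7.42 and 8.22 CPM (2.36 ± 0.59, edgeR adjusted p = 0.015). This call was lost without either 17-month library or without 18-month library 1. No member was called in edgeR in the other named excitatory nuclei (1.97% of genes), microglia (5.53%), astrocytes (5.05%) or endothelial nuclei (0.693%), where 1.10%, 2.59%, 2.94% and 0.520% of genes were higher, with 3, 0, 0 and 1 members at an unadjusted p under 0.05. For the unadjusted counts, the share of all genes is not given here. DESeq2 called 1 member in the other named excitatory nuclei, HOMER1 (0.86), and none in the other 3 classes. Other alternatives called 5 members in the other named excitatory nuclei by edgeR's adjusted p: FOS (1.39) and NPAS4 (1.13) without the filter on low counts, HOMER1 (1.06) without 18-month library 1, FOS (1.42) and BDNF (-0.76) without 18-month library 2, and PCSK1 (0.73) with the replicate number as a block. Handling genes had a median log2 difference of 0.38 in claustrum-like, 0.33 in inhibitory and 0.27 in striatal neurons, higher in the 18-month animal. The median was also positive in other named excitatory nuclei (0.31), oligodendrocytes (0.47), precursors (0.375), microglia (0.52), astrocytes (0.19) and endothelial nuclei (0.94). In claustrum-like neurons the handling genes HSPA5 (0.58) and HSPH1 (0.38) were called. Inhibitory neurons had 4 of 7 called, striatal neurons 2 of 6, oligodendrocytes 3 of 8 and precursors 2 of 6. Microglia had 1 of 6 and endothelial nuclei 1 of 8. The part of handling genes in these results was not tested.

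**Figure D5:**
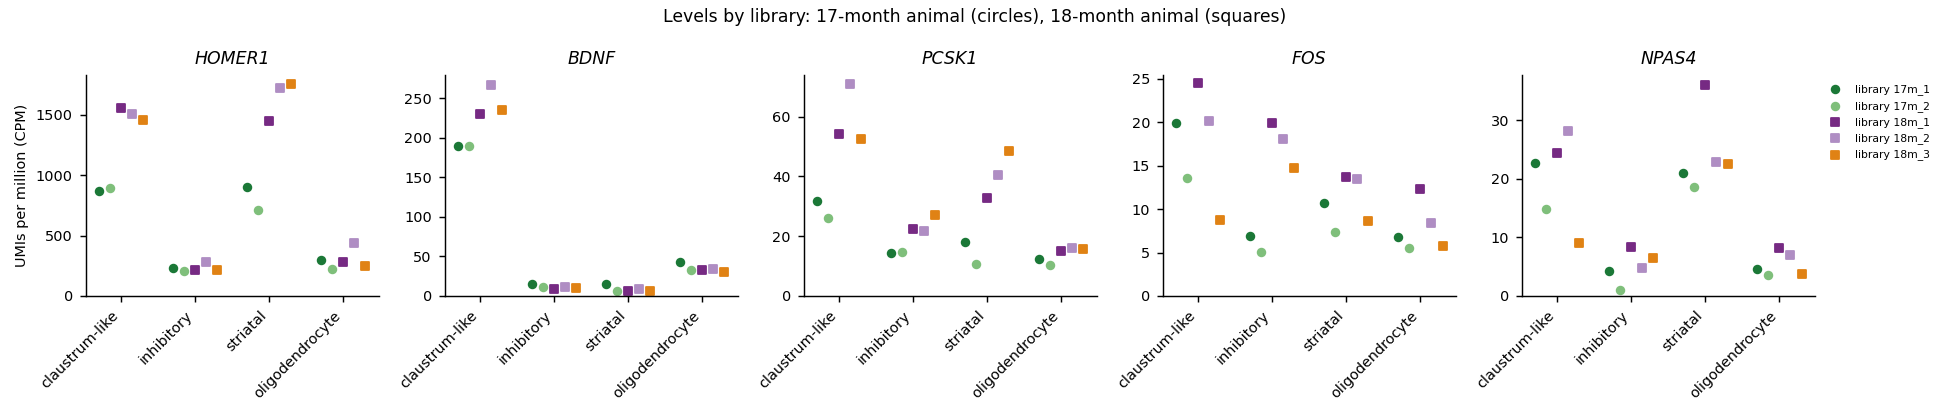
Levels of HOMER1, BDNF, PCSK1, FOS and NPAS4 (vertical axes, CPM) in each library of the 17-month (circles) and 18-month animal (squares), in claustrum-like, inhibitory, striatal and oligodendrocyte nuclei. HOMER1 and PCSK1 separate the animals in claustrum-like and striatal neurons, and FOS does so in inhibitory neurons but not in claustrum-like neurons.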

How the data were processed

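Whole-number UMI counts per gene and nucleus were deposited by the authors as 5 matrices from Cell Ranger 5.0.1, per the file headers. The submitters' processing notes name CASAVA 1.8, Cell Ranger, Seurat and the builds Mmul_10 and mm10. Counting of introns and the aligner settings are not given in the sources used here. The 10 genes and the wider lists were chosen with earlier results of these data known.

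Nuclei with fewer than 500 genes (359) were removed. A doublet score removed 2593 nuclei at a fixed rate of 0.8% per 1000 nuclei, since the automatic cut marked as few as 0.153% in a library. Clustering (scanpy 1.11.5) used 4320 genes with all listed genes left out. Clusters were named from marker lists, and the naming thresholds were revised after clusters and markers, but not the members, had been seen. Of the broad clusters named excitatory, 5 had no marker of a broad class among their 10 leading genes. Those leading genes did include markers of excitatory subclasses, such as NTNG2, FOXP2 and RORB.

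UMI counts were summed per library and class (at least 20 nuclei) and tested by edgeR's quasi-likelihood test (version 4.0.16, robust fit, TMM scaling, low counts removed by filterByExpr, library as block for classes), Benjamini-Hochberg adjusted over all genes not used for clustering or naming. The comparison of nuclei with 3 or more rapid genes against none differed in this. It left out only the rapid members by name, so genes used for clustering or naming were tested and adjusted there. Genes named in the text are the members and up to 4 called genes of each list with the largest change. Alternatives were RLE scaling, DESeq2 1.42.0, no filter, stricter nuclei, other doublet rates, blocks and leaving out each library. The comparison with all other excitatory nuclei, the tests of differences between animals by class, the nuclei with 3 or more rapid genes and the ordering over sums of at least 20 nuclei were added after seeing the data. In simulated data with a log2 change of 1.5, edgeR recovered 97.6% of changed genes tested for excitatory against inhibitory, 98.8% for direct against indirect and 92% for the animals in claustrum-like neurons. Among 10989 genes tested in the simulated animals, 11 unchanged genes were called, against 0 in each of the other comparisons. Changed genes were drawn only from genes above a minimum total count.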

Additional observations from a re-analysis of the deposited data

Results flagged for a closer look

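For 3 members the difference between the animals was not the same in excitatory and inhibitory neurons, by an edgeR interaction test added after seeing the data, in which 130 of 10790 genes (1.20%) were called. HOMER1 had an interaction of 0.84 ± 0.12 on the log2 scale (edgeR adjusted p = 0.0057), since its excitatory level was higher in the 18-month animal (1304, 1215 and 1227 CPM against 675 and 666 CPM) while its inhibitory level overlapped between animals. BDNF had an interaction of 0.87 ± 0.15 (edgeR adjusted p = 0.0073), with excitatory levels of 195, 202 and 210.2 against 159.7 and 149.7 CPM and inhibitory levels of 8.84, 11.5 and 10.3 against 15.3 and 11.7 CPM. FOS went the other way, with an interaction of -1.22 ± 0.22 (edgeR adjusted p = 0.011), from inhibitory levels of 19.9, 18.0 and 14.7 against 6.96 and 5.07 CPM. The other 5 members tested in this pair of classes were not called. In the 4 other pairs of classes no member was called, and NPAS4 in direct against indirect pathway-like neurons came nearest, with an interaction of 2.08 and an adjusted p of 0.056.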

How the results depend on the processing

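Between excitatory and inhibitory neurons 6 members were called under every alternative run, except 7 without the filter on low counts, and 5 were called between neurons and glia throughout. Leaving out each library gave 3 to 5 members for claustrum-like against other named excitatory nuclei, 1 to 2 for CGE-like against MGE-like, 1 to 2 for striatal against excitatory, 1 to 4 for direct against indirect, 2 to 4 over the non-neuronal classes and 6 to 13 of a main 11 over the classes compared between animals, with 6 without either 17-month library. No filter gave 2 members for CGE-like against MGE-like, and the comparison with all other excitatory nuclei gave 0.

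The median share of claustrum-like nuclei with a UMI over the 10 members, a summary defined after seeing the data, was 1.78% at 1000 UMIs, 3.17% at 2000 UMIs and 12.6% unthinned, and 1.55 to 2.01% when leaving out each library. The median co-detection ratio of the pairs among NPAS4, FOS, FOSB, EGR1 and NR4A1, also defined after seeing the data, was 2.15 and lay between 2.05 and 2.57 in all settings. Nuclei with 2 or more rapid genes gave 57 called genes in claustrum-like nuclei in place of 88. In direct pathway-like nuclei DESeq2 gave 15 and leaving out each library 25 to 87, in place of 63.

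Signs changed for members that were not called in the comparison as reported. Of these, FOS in claustrum-like nuclei (0.48) and PCSK1 in other named excitatory nuclei (0.73) were called between animals with the replicate number as a block, and BDNF in striatal neurons (-1.08) without 17-month library 2. Leaving out each library, claustrum-like against other named nuclei ranged from -0.0891 to 0.33 for PCSK1 (-0.0776 without 18-month library 3) and from -0.14 to 0.12 for EGR1. BDNF ranged from -0.15 to 0.0709 in direct against indirect (-0.0516 without 18-month library 3) and from -0.13 to 0.0265 in neurons against glia. Between animals, FOS in claustrum-like nuclei ranged from -0.14 to 0.47 (-0.0814 without 17-month library 2), PCSK1 in other named nuclei from -0.21 to 1.29 and BDNF in striatal neurons from -1.08 to 0.13. The cause was not tested. Another 58 member values that were never called are left out here, 18 of which changed sign.

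Replicate numbers of different animals were not taken as pairs. With the mean of each animal removed, same-numbered libraries correlated at -0.164 and -0.055 in claustrum-like nuclei. In other named excitatory nuclei the values were 0.067 and 0.188. With 2 libraries in the 17-month animal, the centered values of 1 library mirror those of the other. The signs are therefore tied to each other, and these values cannot decide whether the libraries pair. With the replicate number as a block 15 members were called between animals in place of 11, and without the library as a block 3 in place of 4 for direct against indirect.

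Counts over all genes moved most between animals: 1543 in claustrum-like nuclei became 246 and 256 without 17-month library 1 or 2 and 1015 with the block, 756 in inhibitory neurons became 239 with DESeq2 and 333, 376 and 494 without 17-month library 1 or 2 or 18-month library 2, and 1084 in striatal neurons became 597 with DESeq2 and 464 and 572 without 17-month library 1 or 2. In other named excitatory nuclei 169 became 94 with DESeq2, 602 without a filter and 8 to 664 when leaving out each library. In glial and endothelial classes, over all alternatives, 1366 became as few as 342 in oligodendrocytes, 341 as few as 103 in precursors, 440 became 112 to 860 in microglia, 345 as few as 118 in astrocytes and 44 became 2 to 231 in endothelial nuclei. For direct against indirect 64 became 108 without a filter and 42 without the block. Nuclei per library, as few as 54 indirect and 56 direct, limit the precision of the striatal values.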
